A study of Mus musculus with 18 samples.

Results

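The genes described here are 10 genes of cardiac fibrosis that do not encode collagens. They are the matrix and matricellular genes Postn, Ctgf, Fn1 and Lox, the protease inhibitors Timp1 and Timp4, the growth factors Tgfb1, Tgfb2 and Tgfb3, and the smooth muscle actin gene Acta2. They were chosen by name, for their known roles, and all 10 were found among the 23457 genes with read counts and the 23396 genes with FPKM (read fragments scaled to gene length and library size). RNA was sequenced from the ventricles of 18 male C57BL/6 mice aged 17 weeks, 6 in each of 3 groups, and each heart was a separate animal. At 8 weeks of age the mice had received, by tail vein, a recombinant adeno-associated virus of serotype 6 carrying FLAG-tagged PLCβ1b (rAAV6-PLCβ1b), FLAG-tagged PLCβ1a (rAAV6-PLCβ1a), or a promoter with no protein product (rAAV6-blank). PLCβ1a and PLCβ1b are splice variants of phospholipase Cβ1, the enzyme that Gαq activates to cleave a membrane phosphoinositide. All animals therefore carried a vector, no uninjected heart was among the samples, and the RNA came from whole ventricular tissue, not from sorted cells.

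In cardiac fibrosis, fibroblasts become myofibroblasts, which contain smooth muscle actin and lay down matrix. The TGF-β ligands are the best known drivers of that change: they are secreted in a latent form held in the matrix, are released by integrins and proteases, and signal through a pair of receptor kinases to SMAD2 and SMAD3. Ctgf, Postn, Fn1, Lox and Acta2 are well known targets of this signal, while the TIMPs restrain the metalloproteases that break matrix down. The comparison with rAAV6-blank addressed whether expression of each PLCβ1 variant went with a transcriptional response in the ventricle. That of PLCβ1b with PLCβ1a addressed whether the hearts of those groups differed.

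The windows upstream of 6 of the 10 genes (Postn, Timp1, Timp4, Tgfb1, Tgfb2 and Acta2) were found in RefSeq promoter sequences of the build GRCm38.p6. Those of Timp4, Tgfb1 and Tgfb2 are shown, because Timp4 had the largest difference from blank among the 9 of the 10 genes that could be tested and because the TGF-β ligand genes differed in level. Each line holds the 250 bases before the RefSeq start site, and capitals mark the SMAD box CAGAC, the TATA box TATAAA and the GC box GGGCGG, each searched on both strands.
Timp4: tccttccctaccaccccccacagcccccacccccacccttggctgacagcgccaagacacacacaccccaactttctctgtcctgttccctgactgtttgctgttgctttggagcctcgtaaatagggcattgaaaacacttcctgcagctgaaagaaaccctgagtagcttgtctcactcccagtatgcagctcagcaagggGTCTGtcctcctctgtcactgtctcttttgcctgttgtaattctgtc
Tgfb1: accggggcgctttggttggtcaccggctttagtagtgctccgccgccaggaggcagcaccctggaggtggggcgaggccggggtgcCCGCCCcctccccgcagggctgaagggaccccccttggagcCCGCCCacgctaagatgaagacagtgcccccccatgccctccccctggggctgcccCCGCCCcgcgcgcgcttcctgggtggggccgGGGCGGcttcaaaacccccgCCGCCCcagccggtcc
Tgfb2: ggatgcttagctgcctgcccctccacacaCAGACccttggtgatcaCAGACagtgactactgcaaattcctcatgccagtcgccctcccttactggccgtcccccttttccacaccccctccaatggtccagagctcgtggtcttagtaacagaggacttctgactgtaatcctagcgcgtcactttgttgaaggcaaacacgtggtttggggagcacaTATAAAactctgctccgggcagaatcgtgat

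The Timp4 window lay on the minus strand at chr6:115252206-115252455 and held 1 SMAD box and none of the other motifs. Its start site was 356 bases upstream of the start of Timp4 in the deposited annotation, so the window is the one RefSeq gives and not one measured in these hearts. The Tgfb1 window, on the plus strand at chr7:25686752-25687001, had a GC content of 75.2% and held 5 GC boxes, no TATA box and no SMAD box. The Tgfb2 window, on the minus strand at chr1:186705990-186706239, held 2 SMAD boxes and a TATA box starting 31 bases before the start site, and no GC box. No match overlapped another motif. Over the same 250 bases of all 32851 RefSeq windows, a SMAD box was found in 42.2%, a TATA box in 12.4% and a GC box in 32.7%.

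Total counts per heart ranged from 13246339 to 24155465. Of these, 53.5% to 57.5% came from mt-Rnr2, a ribosomal RNA of the mitochondrion. With all 37 mitochondrial genes taken off, 3908354 to 7591558 counts of nuclear genes were left. Plcb1, the gene both vectors carry, measured 5.43 to 6.89 CPM (counts scaled to library size) in blank hearts, 17.8 to 29.3 with PLCβ1a and 23.2 to 70.0 with PLCβ1b. In PLCβ1b hearts it was at 2.12-fold of its level in PLCβ1a hearts (95% interval 1.54 to 2.92). Variant and level of Plcb1 therefore cannot be told apart between these groups. The markers of ventricular cardiomyocytes summed to between 17110 and 18449 CPM and the 4 atrial markers to at most 61.0 CPM, and no group stood apart in either sum. Fibroblast, smooth muscle, pericyte, endothelial and macrophage markers were present in every heart.

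Levels were compared between genes in FPKM, the scale that takes account of gene length. In blank hearts Acta2 was highest, at 15.99 ± 1.99 FPKM (SD, n = 6), followed by Ctgf at 11.3 ± 0.735, Postn at 9.77 ± 0.966 and Timp4 at 9.39 ± 1.55. Fn1 was at 3.41 ± 0.155 FPKM, Tgfb3 at 2.66 ± 0.313 and Tgfb1 at 1.84 ± 0.148. Tgfb2 at 0.849 ± 0.150 FPKM, Timp1 at 0.669 ± 0.0808 and Lox at 0.605 ± 0.117 were lowest. The ranges of Ctgf and Postn, Postn and Timp4, Tgfb2 and Timp1, and Timp1 and Lox overlapped. Within the same heart, Ctgf was above Postn in 6 of 6 blank hearts, Postn above Timp4 in 4, Tgfb2 above Timp1 in 5 and Timp1 above Lox in 3. Each other gene in the order was above the next in all 6 blank hearts, without overlap. Among the genes tested, Acta2 stood at the 88.9th percentile of FPKM and Lox at the 13.4th.

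**Figure D1:**
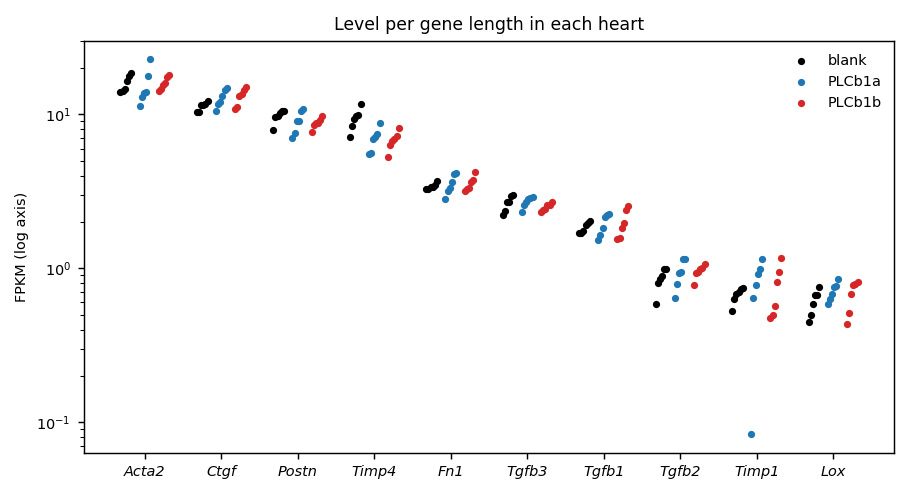
Level of each gene in FPKM on a log axis, in order of its mean in blank hearts, with 1 point per heart (6 hearts per group, placed by value within a group). Acta2, Ctgf, Postn and Timp4 form the upper set and Tgfb2, Timp1 and Lox the lower, and the groups overlap for every gene.

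No gene of the set passed the test in any comparison. A gene was called at a false discovery rate (FDR) below 0.1 by the quasi-likelihood F test of edgeR, adjusted over the 12281 genes tested. Of the 10 genes 9 were tested, and Timp1 was below the filter on low counts. Calls were 0 of 9 for PLCβ1b against blank, where 0.0977% of all genes were called, 0 of 9 for PLCβ1a against blank, where 0.138% were, and 0 of 9 for PLCβ1b against PLCβ1a, where 0% were. At an unadjusted p below 0.05, Ctgf (higher) and Timp4 (lower) were counted in both comparisons with blank, 2 of 9 genes beside 7.41% of all genes for PLCβ1b and 8.58% for PLCβ1a. By direction, the background was 3.94% higher and 3.47% lower for PLCβ1b, and 4.42% higher and 4.16% lower for PLCβ1a. None of the 9 was counted in PLCβ1b against PLCβ1a, beside 4.42% of all genes (2.24% higher and 2.18% lower). Plcb1 itself was not called in that comparison (FDR 0.801). DESeq2 called none of the 9 in any comparison, its lowest FDR being 0.101, for Timp4 in PLCβ1a against blank. For no gene of the set were 2 groups without overlap, a pattern found in 0.480% of all genes for PLCβ1b against blank, 0.594% for PLCβ1a against blank and 0.179% between the PLCβ1 groups. Both comparisons with blank use the same 6 blank hearts, so their values below stand side by side and neither is a repeat of the other. In whole ventricle, fewer cells of a type and less RNA per cell cannot be told apart.

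**Figure D2:**
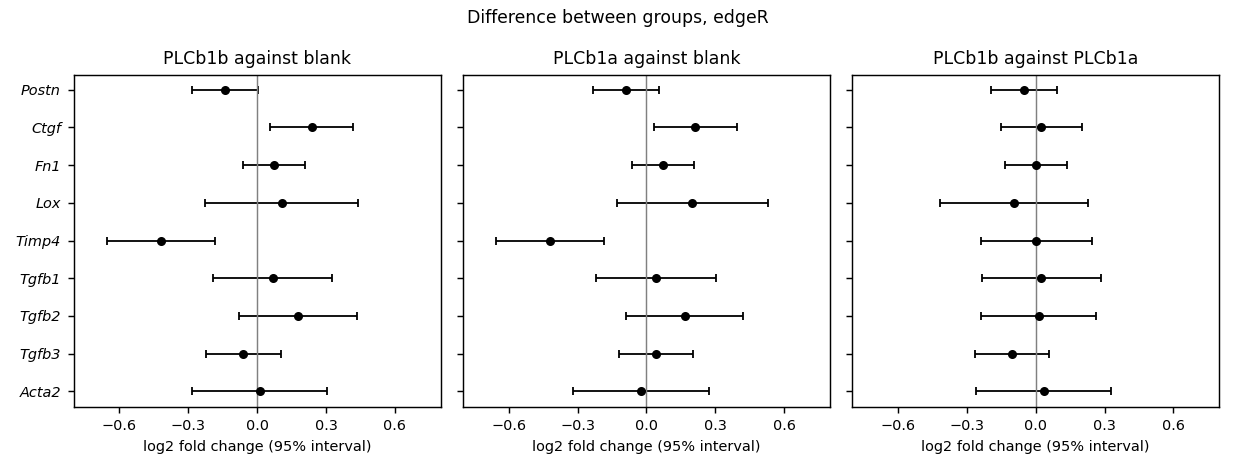
Log2 fold change of the 9 tested genes in each comparison (edgeR, points) with its 95% interval (bars), with 6 hearts per group. Only the intervals of Ctgf and Timp4 exclude 0, in both comparisons with blank, and every interval between the PLCβ1 groups includes it.

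Timp4, a metalloprotease inhibitor that is abundant in heart, had the largest difference from blank of the 9 genes. The gene lies on chromosome 6 (mm10, chr6:115245616-115251849, minus strand, 5 exons) within the locus of Syn2 on the other strand, with no exon in common. Blank hearts ranged from 8.79 to 14.4 CPM with a median of 11.5. PLCβ1a hearts ranged from 6.69 to 10.4 CPM with a median of 8.78, and PLCβ1b hearts from 7.39 to 10.4 CPM with a median of 8.44. Of the 6 blank hearts 4 were above every PLCβ1b heart, and 4 were above every PLCβ1a heart, while the other 2, hearts 32 and 36, lay inside both PLCβ1 ranges. Timp4 was at 0.748-fold of blank in PLCβ1b hearts (log2 fold change −0.42 ± 0.11 SE, 95% interval −0.65 to −0.18, FDR 0.259) and at 0.747-fold in PLCβ1a hearts (−0.42 ± 0.11 SE, −0.66 to −0.19, FDR 0.256). It did not pass the threshold in either, and ranked 60th and 55th of 12281 genes by p. The PLCβ1 groups were level, with a log2 difference of 0.00 and an interval from −0.24 to 0.24. Without blank heart 32 Timp4 was called in PLCβ1b against blank (FDR 0.0966) and not in PLCβ1a against blank (FDR 0.113), and without blank heart 36 in neither (FDR 0.235 and 0.216). Over the other tools, scalings, filters, samples fitted and units its FDR ran from 0.145 to 0.521 for PLCβ1b and from 0.101 to 0.476 for PLCβ1a.

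Timp1, the inhibitor best known for its induction in injured and inflamed tissue, was close to the limit of detection. It lies on chromosome X (chrX:20870166-20874737, plus strand) within the locus of Syn1 on the other strand, with no exon in common. Counts were 6 to 11 in blank hearts, 1 to 17 with PLCβ1a and 6 to 14 with PLCβ1b. The single count came from PLCβ1a heart 21 and the 17 from PLCβ1a heart 7, and in counts the range of that group covered the other 2 groups. Scaled to library size it did not: PLCβ1a hearts ranged from 0.0513 to 0.715 CPM and PLCβ1b hearts from 0.326 to 0.765. Blank hearts ranged from 0.346 to 0.494 CPM. With no filter on low counts the log2 fold change was 0.16 ± 0.33 SE for PLCβ1b against blank (FDR 0.951) and 0.18 ± 0.33 SE for PLCβ1a against blank (FDR 0.928). The 95% intervals, from −0.49 to 0.81 and from −0.46 to 0.83, were the widest of the set in these comparisons.

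Within the TIMP family, Timp3, an inhibitor bound to the matrix, made up most of the message. Of the summed FPKM of the 4 TIMPs in all 18 hearts, Timp3 held 59.8% ± 2.59 (SD), Timp2 21.5% ± 2.03, Timp4 17.1% ± 2.95 and Timp1 1.63% ± 0.606. The share of Timp4 was 19.4% ± 3.37 in blank hearts, 15.9% ± 2.73 with PLCβ1a and 16.04% ± 1.26 with PLCβ1b, with overlapping ranges. The share of Timp2 was 19.6% ± 0.765 in blank hearts, 21.8% ± 0.787 with PLCβ1a and 22.96% ± 2.41 with PLCβ1b. Its blank range (18.2% to 20.2%) did not overlap that with PLCβ1a (21.02% to 22.99%) but overlapped that with PLCβ1b (20.1% to 26.7%). A share also depends on the other genes of the sum. Timp3 had a log2 fold change of −0.19 (FDR 0.599) in PLCβ1b hearts and −0.12 (FDR 0.705) in PLCβ1a hearts, and Timp2 had 0.04 (FDR 0.899) and 0.01 (FDR 0.968). Timp2 and Timp3 were named after their values were seen.

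Ctgf, also called Ccn2, encodes a secreted matricellular protein that binds growth factors and integrins and is a standard readout of TGF-β and of stretch. It lies at chr10:24595442-24598682 on the plus strand and has 5 exons. Blank hearts ranged from 20.9 to 24.9 CPM with a median of 21.3, and 5 of the 6 lay between 20.9 and 21.9. PLCβ1a hearts ranged from 22.1 to 28.8 CPM with a median of 25.1, and PLCβ1b hearts from 21.5 to 30.5 CPM with a median of 25.4. All PLCβ1a hearts were above 5 of the 6 blank hearts, and 3 hearts of each PLCβ1 group were above every blank heart, the overlap with PLCβ1a coming from blank heart 26. Ctgf was at 1.18-fold of blank in PLCβ1b hearts (log2 fold change 0.24 ± 0.09 SE, 95% interval 0.06 to 0.42, FDR 0.542) and at 1.16-fold in PLCβ1a hearts (0.21 ± 0.09 SE, 0.03 to 0.39, FDR 0.483), and passed in neither. The PLCβ1 groups differed by 0.02, with an interval from −0.15 to 0.20.

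Periostin, encoded by Postn (chr3:54361107-54391041, plus strand, up to 22 exons), is a matricellular protein that marks activated fibroblasts after injury. Its level was 22.2 to 27.6 CPM in blank hearts with a median of 25.8, 18.6 to 27.6 CPM in PLCβ1a hearts with a median of 23.6, and 20.8 to 24.6 CPM in PLCβ1b hearts with a median of 22.7. Of the blank hearts 4 were above every PLCβ1b heart, and none was above every PLCβ1a heart. The log2 fold change was −0.14 ± 0.07 SE for PLCβ1b against blank (interval −0.28 to 0.0045, FDR 0.686) and −0.09 ± 0.07 SE for PLCβ1a against blank (interval −0.23 to 0.05, FDR 0.764). Postn was thus on the other side of 0 from Ctgf in both comparisons, with neither past the threshold. The summed CPM of 6 markers of activated fibroblasts was 23.5 to 25.4 in blank, 16.9 to 27.3 with PLCβ1a and 23.0 to 27.1 with PLCβ1b. Of these, Cthrc1, a marker of matrix-producing fibroblasts, was barely detected. Its median was 0 CPM in blank and PLCβ1a hearts and 0.0533 CPM in PLCβ1b hearts. The other markers of the list were detected in every heart, with medians in blank hearts from 2.40 CPM for Thbs4 to 10.9 CPM for Cilp. Cthrc1 was named after its values were seen.

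Fibronectin, encoded by Fn1 (chr1:71585473-71653234, minus strand, up to 46 exons), is the scaffold on which other matrix is assembled. Its highest heart was 1.30 times its lowest in CPM and 1.48 times in FPKM, beside 1.46 and 1.44 times for Ctgf. Blank hearts ranged from 21.3 to 25.9 CPM, PLCβ1a hearts from 21.5 to 27.6 and PLCβ1b hearts from 21.6 to 27.7, with medians of 22.7, 23.4 and 23.5. The log2 fold change was 0.07 in both comparisons with blank, with intervals from −0.06 to 0.21 and FDR of 0.856 for PLCβ1b and 0.808 for PLCβ1a.

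Lox encodes lysyl oxidase, which cross-links collagen and elastin. It lies on chromosome 18 (chr18:52517238-52529708, minus strand). Its counts were 21 to 62 per heart, and its level was 1.38 to 2.34 CPM in blank hearts, 1.96 to 2.50 with PLCβ1a and 1.33 to 2.93 with PLCβ1b, so the PLCβ1b group held both the lowest and the highest heart. The log2 fold change was 0.11 ± 0.16 SE for PLCβ1b (FDR 0.920) and 0.20 ± 0.16 SE for PLCβ1a (FDR 0.770) against blank. Lox made up 8.78% ± 1.31 (SD, 18 hearts) of the summed FPKM of the 5 lysyl oxidase genes, below Loxl1 at 51.1% ± 3.03 and Loxl2 at 29.8% ± 3.46. Loxl1, which is needed for elastic fibre upkeep, had the lowest FDR of the 80 pathway genes tested in PLCβ1b against blank: 7.62 to 10.5 CPM in blank hearts, 9.84 to 12.7 in PLCβ1b hearts and 10.1 to 12.1 in PLCβ1a hearts. Its log2 fold change was 0.27 ± 0.07 SE for PLCβ1b (FDR 0.223) and 0.24 ± 0.07 SE for PLCβ1a (FDR 0.281), and it passed in neither.

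**Figure D3:**
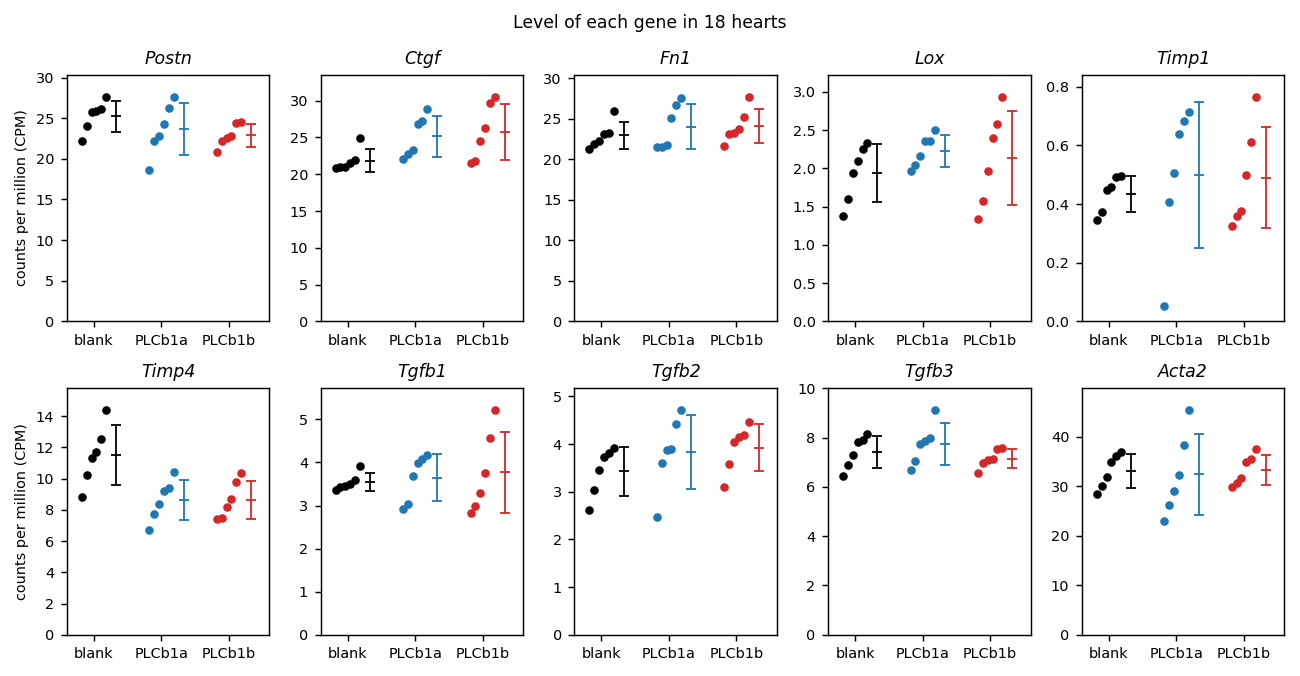
CPM of each gene in each of the 18 hearts, with the mean and SD of each group of 6 at its right (points are placed by value within a group and each axis starts at 0). Timp4 is lower and Ctgf higher in most PLCβ1 hearts than in most blank hearts, with overlap, and Acta2 spreads most in PLCβ1a hearts, from 23.0 to 45.3 CPM.

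The 3 TGF-β ligands were all detected, and the order of their levels was the same in every group. Of their summed FPKM, Tgfb3 held 48.2% ± 4.38 (SD, 18 hearts), Tgfb1 35.1% ± 3.89 and Tgfb2 16.8% ± 2.72. Tgfb3 was never below 41.5% and Tgfb2 never above 21.4%. The share of Tgfb3 was 49.7% ± 4.39 in blank, 48.6% ± 4.62 with PLCβ1a and 46.2% ± 4.14 with PLCβ1b, with overlapping ranges.

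Tgfb1 (chr7:25687002-25704996, plus strand), the isoform most tied to fibrosis, measured 3.36 to 3.92 CPM in blank hearts, with medians of 3.47 in blank, 3.83 with PLCβ1a and 3.53 with PLCβ1b. PLCβ1a hearts ranged from 2.93 to 4.18 CPM and PLCβ1b hearts from 2.82 to 5.21, so both PLCβ1 groups spread to either side of the blank range. Its log2 fold change was 0.07 (interval −0.19 to 0.33, FDR 0.936) for PLCβ1b and 0.04 (interval −0.22 to 0.30, FDR 0.958) for PLCβ1a against blank.

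Tgfb2 (chr1:186623186-186705992, minus strand), an isoform with a role in heart valve formation, measured 2.61 to 3.92 CPM in blank, 2.47 to 4.71 with PLCβ1a and 3.10 to 4.46 with PLCβ1b. Of the PLCβ1b hearts 4 were above every blank heart. The log2 fold change was 0.18 ± 0.13 SE for PLCβ1b (interval −0.08 to 0.43, FDR 0.807) and 0.17 ± 0.13 SE for PLCβ1a (interval −0.09 to 0.42, FDR 0.755).

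Tgfb3 (chr12:86056743-86079041, minus strand) measured 6.46 to 8.16 CPM in blank, 6.69 to 9.11 with PLCβ1a and 6.56 to 7.60 with PLCβ1b. The log2 fold change was −0.06 (interval −0.22 to 0.10, FDR 0.903) for PLCβ1b and 0.04 (interval −0.12 to 0.20, FDR 0.924) for PLCβ1a against blank. Between the PLCβ1 groups it had the largest difference of the 9 genes, −0.10 for PLCβ1b against PLCβ1a (interval −0.26 to 0.06, FDR 0.999941), and 4 PLCβ1a hearts were above every PLCβ1b heart. Over the 3 ligands and both comparisons with blank, the 95% intervals of the fold ran from 0.856 to 1.35.

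Acta2 (chr19:34240336-34255373, minus strand, 9 exons) encodes smooth muscle α-actin, found in vessel walls and in myofibroblasts. Blank hearts ranged from 28.4 to 36.9 CPM with a median of 33.3, and PLCβ1b hearts from 29.9 to 37.6 with a median of 33.2. PLCβ1a hearts ranged from 23.0 in heart 21 to 45.3 in heart 7, with a median of 30.7, and so held both extremes of the 18 hearts. The biological coefficient of variation of Acta2 was 0.160, at the 95.5th percentile of all genes tested, whose median was 0.0710. The log2 fold change was 0.01 ± 0.14 SE for PLCβ1b (interval −0.29 to 0.31, FDR 0.995) and −0.02 ± 0.14 SE for PLCβ1a (interval −0.32 to 0.27, FDR 0.979). PLCβ1a heart 7 also had the highest sum of 8 immediate early genes, at 230.3 CPM beside at most 142 CPM in PLCβ1b hearts and 91.2 in blank hearts, the highest Cyr61 of its group, at 46.9 CPM, and the lowest Timp4 of its group. Without that heart the log2 fold change of Acta2 in PLCβ1a against blank was −0.16. Across the 18 hearts, as deviations from group means, Acta2 had r = 0.62 with the immediate early list (permutation p = 0.00996, adjusted 0.224). Timp4 had r = −0.46 with that list (permutation p = 0.0645, adjusted 0.603). The part of the immediate early genes in the values of heart 7 was not tested. Smooth muscle markers summed to 82.5 to 101 CPM in blank, 89.2 to 108 with PLCβ1a and 93.3 to 101 with PLCβ1b.

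The rest of the pathway was read from 8 lists with 84 genes that are not among the 10, of which 80 were tested. None was called in any comparison. At an unadjusted p below 0.05, 9 were higher and 1 lower in PLCβ1b against blank, which is 12.5% beside the 7.41% of all genes, and 7 were higher and 2 lower in PLCβ1a against blank, which is 11.2% beside 8.58%. Between the PLCβ1 groups 2 were higher and 0 lower, which is 2.50% beside 4.42%. Over all genes, 3.94% were higher and 3.47% lower in PLCβ1b against blank, and 4.42% higher and 4.16% lower in PLCβ1a against blank. Over all genes between the PLCβ1 groups, 2.24% were higher and 2.18% lower. The median log2 fold change of the 80 genes was 0.05 for PLCβ1b and 0.04 for PLCβ1a against blank, and that of all genes tested was 0.00 in both.

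Among the 11 genes that hold TGF-β latent or release it, the lowest p was that of Fbn1, the fibrillin that anchors latent complexes, at a log2 fold change of 0.28 (FDR 0.539) for PLCβ1b and 0.22 (FDR 0.538) for PLCβ1a. Of the 5 receptors it was Tgfbr2, the type II receptor, at 0.10 (FDR 0.743) for PLCβ1b, and the endothelial co-receptor Eng at −0.18 (FDR 0.281) for PLCβ1a. Of the 10 SMADs and their regulators it was Smad3 at 0.10 (FDR 0.810) for PLCβ1b and the corepressor Tgif1 at 0.48 (FDR 0.491) for PLCβ1a. The receptors and SMADs had list medians of −0.02 and −0.01 for PLCβ1b and of 0.00 and −0.01 for PLCβ1a. Of the TGF-β induced genes, 7 of 8 tested, it was the NADPH oxidase Nox4 at 0.45 (FDR 0.641) for PLCβ1b.

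In the CCN family, to which Ctgf belongs, 4 of 5 other genes were tested, and the lowest p was that of Cyr61 at 0.39 (FDR 0.772) for PLCβ1b and of Nov at 0.55 (FDR 0.305) for PLCβ1a. Ctgf held 45.8% ± 4.99 (SD, 18 hearts) of the family's summed FPKM and Cyr61 43.8% ± 5.55. Of the matrix proteases and their inhibitors, 11 of 13 tested, the lowest p was that of the gelatinase Mmp2 at 0.18 (FDR 0.505) for PLCβ1b and 0.19 (FDR 0.341) for PLCβ1a. Of the 28 other non-collagen matrix genes it was that of lumican, Lum, a small proteoglycan of collagen fibrils, at 0.23 in both, with FDR 0.235 for PLCβ1b and 0.256 for PLCβ1a. Between the PLCβ1 groups the lowest-p genes of the 8 lists were Ltbp4 (0.08), Eng (0.11), Tgif1 (−0.41), Tgfbi (−0.11), Nov (−0.30), Loxl2 (−0.22), Mmp15 (0.10) and Thbs3 (0.40), all at FDR 0.999941.

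**Figure D4:**
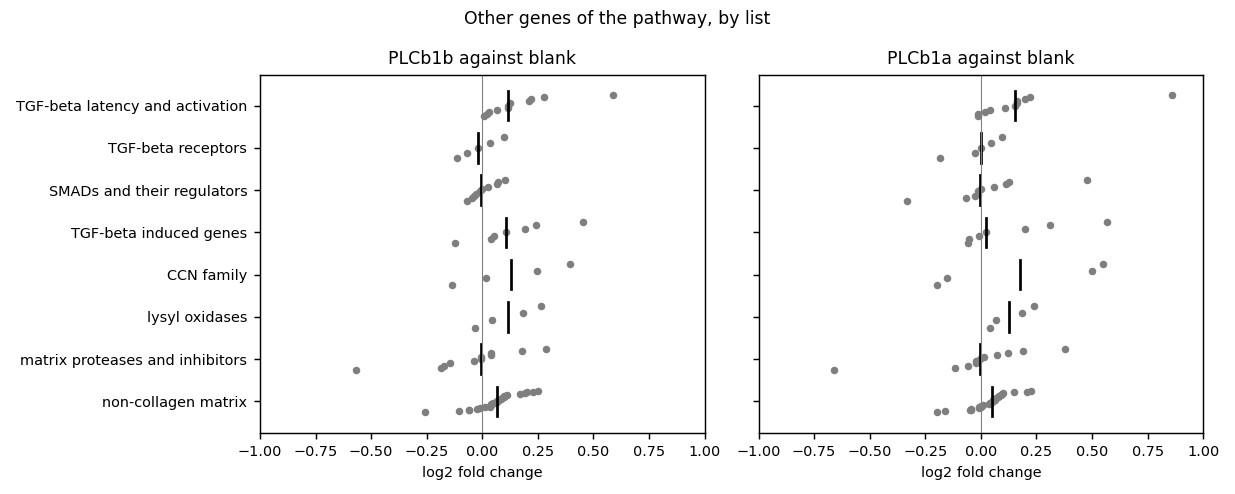
Log2 fold change (edgeR, 6 hearts per group) of the 80 other pathway genes in both comparisons with blank, by list, with 1 point per gene and a black bar at the list median. The receptors and SMADs are centred near 0 and no gene passed an FDR of 0.1.

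No gene of the cell type marker lists was called in any comparison, and the summed CPM of each list overlapped between the groups. The fibroblast list summed to 616 to 669 CPM in blank, 607 to 691 with PLCβ1a and 624 to 681 with PLCβ1b. Macrophage markers (6 of 7 in the count table by these names) summed to 71.9 to 88.0, 67.8 to 91.2 and 65.1 to 99.2 CPM. The immediate early list had the largest median log2 fold changes against blank, 0.57 for PLCβ1b and 0.80 for PLCβ1a, with an overlap between groups and no gene called. The 4 atrial markers had medians of −0.355 for PLCβ1b and 0.02 for PLCβ1a against blank. Their median was −0.379 for PLCβ1b against PLCβ1a, where 1 of the 4 was lower at an unadjusted p below 0.05, beside 2.18% of all genes.

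The genes were also compared from heart to heart within groups, as deviations of log2 CPM from the group mean over 18 hearts. None of the 36 pairs of the 9 tested genes was related at an adjusted p below 0.1 (permutation test of Pearson's r, 100000 permutations within groups, two-sided, Benjamini-Hochberg over the pairs). The pair with the lowest p was Fn1 and Lox, at r = 0.39 and rho = 0.35 (permutation p = 0.0932 and 0.127, adjusted 0.743 and 0.694), and r was 0.35 without the 2 hearts farthest from the median of Fn1. Postn and Fn1 had r = 0.45 and rho = 0.49 (permutation p = 0.121 and 0.0807, adjusted 0.743 and 0.694), and r was 0.17 without the 2 farthest hearts. Within groups that pair had r of −0.47 in blank, 0.88 with PLCβ1a and 0.14 with PLCβ1b.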

How the data were processed

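Ribosomal RNA-depleted, strand-specific paired-end libraries of 18 hearts were sequenced by the authors. Per the submitters' processing notes and the paper, reads were aligned with TopHat2 2.0.10 to mm10 and counted on genes with HTSeq. The labels give both ventricles as the tissue and the methods the left. The deposited counts are raw and whole. The deposited FPKM values are normalised by the authors for length and depth, the notes also naming Cufflinks 2.1, and a fragment shared by similar genes can be counted differently in each table. The test was that of edgeR 4.0.16 on TMM-scaled counts (R 4.3.3; quasi-likelihood F test, robust estimation, 1 model of 3 groups) after filterByExpr (minimum count 10, minimum total 15), with Benjamini-Hochberg adjustment over 12281 genes and calls at FDR below 0.1. CPM were scaled to all counts, mitochondrial ones included, with TMM factors. Log2 CPM used a prior count of 2. The scripts for the group comparisons and for the correlations were tested on simulated data. Alternatives were DESeq2 1.42.0, RLE and upper-quartile scaling, no filter, only the groups compared, mitochondrial genes left out, limma 3.58.1 on log2(FPKM + 0.1) and log2(FPKM + 1) (mean FPKM 0.5 or more), an FDR of 0.05, each heart left out and, chosen after seeing the data, edgeR without robust estimation. Named genes are the 10, Plcb1, the gene of lowest p in each list and comparison (1 is not reported here), and the 3 genes most correlated with each of the 10. The genes and lists were chosen with earlier results of these data known.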

Additional observations from a re-analysis of the deposited data

Results flagged for a closer look

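Each gene was looked at for a heart far from the rest of its group, in 30 groups of 6 hearts, of which chance alone sets apart about 1 in 20. One heart stood apart. Blank heart 26 had 24.9 CPM of Ctgf, while the other 5 blank hearts lay between 20.9 and 21.9, a gap of 0.746 of the group's range.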

How the results depend on the processing

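No paired analysis was possible because the groups share no replicate numbers. No gene of the set was called in any comparison under DESeq2, the other scalings, filters, samples, units and FDR of 0.05, and none of the 36 pairs was related. With hearts left out, the number called ranged from 0 to 1 in PLCβ1b against blank, the call being Timp4 without blank heart 32, and was 0 in the other comparisons. Of the values under the settings other than left-out hearts, 241 kept their direction and side of the threshold and 2 turned, both Timp4 in PLCβ1b against PLCβ1a, to −0.0191 with limma on log2(FPKM + 0.1) and −0.0174 on log2(FPKM + 1). The cause was not tested. Of those with hearts left out, 446 kept both, 1 gained a call and 39 turned. The log2 fold changes that turned ranged, over left-out hearts, from −0.0396 to 0.138 for Tgfb1 and from −0.0315 to 0.0474 for Acta2 in PLCβ1b against blank, and from −0.155 to 0.0586 for Acta2 in PLCβ1a against blank. In PLCβ1b against PLCβ1a they ranged from −0.0306 to 0.0721 for Ctgf, −0.0442 to 0.0422 for Fn1, −0.196 to 0.0121 for Lox, −0.0723 to 0.0633 for Timp4, −0.0825 to 0.0957 for Tgfb1, −0.0863 to 0.0746 for Tgfb2 and −0.0485 to 0.165 for Acta2. Timp1 and Lox had the fewest counts, at 1 to 17 and 21 to 62 per heart, and depth was not varied.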

Other observations

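Across hearts, the genes were set beside 10 cell type and state marker lists, each scored as the mean log2 CPM of its tested markers. This gave a family of 90 relations (9 genes by 10 lists, deviations from group means, 18 hearts, 100000 permutations within groups), and none had an adjusted p below 0.1. The relation with the lowest p was that of Fn1 with the macrophage markers, at r = 0.76 and rho = 0.76 (permutation p = 0.00144 and 0.0017, adjusted 0.130 and 0.153). Its r was 0.63 without the 2 hearts farthest from the median of the marker list, the rule for each relation here. Within groups its r was 0.04 in blank hearts, 0.91 with PLCβ1a and 0.87 with PLCβ1b. Postn with the activated fibroblast markers had r = 0.76 and rho = 0.55 (permutation p = 0.00476 and 0.0347, adjusted 0.148 and 0.487), and r = 0.46 without the 2 farthest hearts. Within groups that relation had r of 0.20 in blank hearts, 0.91 with PLCβ1a and 0.52 with PLCβ1b. Fn1 with the endothelial markers had r = 0.60 and rho = 0.52 (permutation p = 0.00495 and 0.0177, adjusted 0.148 and 0.487), and r = 0.55 without the 2 farthest hearts. Acta2 with the immediate early genes had r = 0.62 and rho = 0.54 (permutation p = 0.00996 and 0.0246, adjusted 0.224 and 0.487), and r = 0.38 without the 2 farthest hearts.

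The genes whose group-centred log2 CPM went most closely with each gene, of the 12280 others tested, are given as a description. For Postn they were Fam228b (r = 0.76), Frmd6 (0.76) and Tirap (0.76), and for Ctgf Pkp2 (0.79), Dstn (0.79) and Col20a1 (0.78). For Fn1 they were Ppip5k1 (0.84), Qsox2 (0.82) and Tgfbr2 (0.82), and for Lox Fam212a (0.80), Lsm2 (0.75) and Nmt2 (0.74). For Timp4 they were Abcc10 (0.86), Ten1 (0.85) and Mia3 (0.80), and for Acta2 Ehd4 (0.84), Akap12 (0.81) and Psme3 (0.78). For Tgfb1 they were Tle3 (0.88), Cacna1a (0.82) and Cd81 (0.80), for Tgfb2 Fam211a (0.83), Phf1 (0.82) and Raver2 (0.79), and for Tgfb3 Rcn3 (0.84), Caml (0.83) and 6430573F11Rik (0.82). The genes were picked for these values, and the values of 2 genes in a heart come from the same library, so no test is given.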
